A study of Yarrowia lipolytica with 9 samples.

Results

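The genes described here are 5 genes of the route that runs from acetyl-CoA through mevalonate to geranylgeranyl diphosphate (GGPP) in the oleaginous yeast Yarrowia lipolytica. They are ERG10 (YALI0E11099g), ERG13 (YALI0F30481g), HMG1 (YALI0E04807g), ERG20 (YALI0E05753g) and GGS1 (YALI0D17050g). They were taken by accession, as 5 rows among the 6145 features of the deposited tables. The rule itself uses no measured value, but the genes were proposed with earlier results of these data known. The accessions are XM_503808.1 for ERG10, XM_506052.1 for ERG13, XM_503558.1 for HMG1, XM_503599.1 for ERG20 and XM_502923.1 for GGS1. The files give no gene names, so each row was checked by its length, which follows from its read count, its FPKM (reads scaled to the length of the feature and the total count of the sample) and the total count of the sample. The recovered lengths were 1194 bases for ERG10, 1341 for ERG13, 3000 for HMG1, 1035 for ERG20 and 984 for GGS1. Each was the same whole number in all 9 samples and equal to the length that RefSeq lists under the same accession, so all 5 rows were kept. This match checks the accession and not which gene it stands for, since the RefSeq table used holds no gene names. For HMG1, ERG20 and GGS1 the rule also stated an approximate length, which the rows met. For ERG10 and ERG13 it stated none, so the identity of these rows rests on the accession alone.

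RNA was sequenced from 3 strains with 3 samples each, after 96 h of cultivation in flasks at 28 °C. All were built from the strain ATCC 201249, which has mutant alleles of URA3, LEU2 and LYS8 and an HA-tagged PEX17. They carried the bacterial carotene genes crtE, crtB, crtI and crtY at the ribosomal DNA, and held extra cassettes of Yl-SPT15, the potential gene of the TATA-binding protein, at GUT2. In Yl_5_2, a deep yellow colony, the first cassette encoded the change E208A and the fifth P25T, A213T and A216V (positions counted from 1 at the first residue). In Yl_5_3, a light yellow colony, the second cassette encoded F194L, and in the control Yl_5_1 all cassettes were wild type. Yl_5_2 and Yl_5_3 were each a single colony picked by colour, made from a carotene strain in which the study found by Q-PCR that parts of the carotene cassettes had integrated more than once. The study also found the right border at GUT2 not fully verified and GUT2 expression lowered in part in the strains with these cassettes. The labels do not say whether the 3 samples of a strain came from separate cultures, so that the p-values measure only the spread between these samples, which may be technical. Whether a difference between strains came from Yl-SPT15 or from another difference between the colonies cannot be told apart. The rows of Yl-SPT15, GUT2 and the carotene genes were not analysed here, since the annotation used names no gene.

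The mevalonate pathway makes the 5-carbon units from which sterols, carotenoids, dolichols and prenyl groups are built. ERG10 encodes acetyl-CoA C-acetyltransferase, which joins molecules of acetyl-CoA, and ERG13 encodes HMG-CoA synthase, which adds a further acetyl unit. HMG1 encodes HMG-CoA reductase, which forms mevalonate and is widely held to be the main control point of the pathway. Farther down, ERG20 encodes farnesyl diphosphate synthase, at the branch where sterol synthesis leaves, and GGS1 encodes GGPP synthase, whose product is the substrate of phytoene synthase (crtB) at the entrance to carotene synthesis. The bacterial crtE also encodes a GGPP synthase, so GGS1 was not the sole gene for this step in these strains.

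The total count lay between 17771507 and 23288547 per sample, and the 5 genes held between 499 and 6245 counts each. Tests were made on the 6037 features that reached 10 counts in 3 or more samples, which include all 5 genes, by edgeR's quasi-likelihood test in a single model of the 9 samples, with Benjamini-Hochberg adjustment over all features tested and a threshold of 0.05. SE stands for the standard error of a log2 fold change. TMM factors, which scale the libraries, ran from 0.952 to 1.05. The values are relative to the other RNA of the same sample, and do not give an amount per cell. Samples of the same strain correlated with a squared Pearson coefficient of at least 0.994 on log2(FPKM + 1), and samples of different strains with one of at most 0.975.

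The 5 genes did not move as a block. In Yl_5_2, ERG10, ERG13 and GGS1 rose relative to Yl_5_1 and HMG1 fell, while ERG20 did not pass the test. In Yl_5_3, ERG13 and HMG1 rose, ERG10 fell by more than any other member, ERG20 fell slightly and GGS1 passed the test narrowly with a rise of 7.08%. So 4 of the 5 genes passed in Yl_5_2, where 57.4% of all features tested did, and 5 of 5 passed in Yl_5_3, where 55.3% did. By direction, 3 members were higher in Yl_5_2 and 1 lower, against 27.4% and 30.0% of all features tested, and 3 were higher in Yl_5_3 and 2 lower, against 25.6% and 29.7%. With so many features called and only 5 genes, nothing particular to the list was read from these counts. The median log2 fold change of the members was 0.38 in Yl_5_2 and 0.10 in Yl_5_3, beside medians of -0.0060 and -0.0033 over all features tested. Single members ran from -0.18 to 0.68 in Yl_5_2 and from -0.83 to 0.51 in Yl_5_3. No shift of the list was read from these medians, since the genes were proposed with earlier results known. The comparisons share the Yl_5_1 samples.

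**Figure D1:**
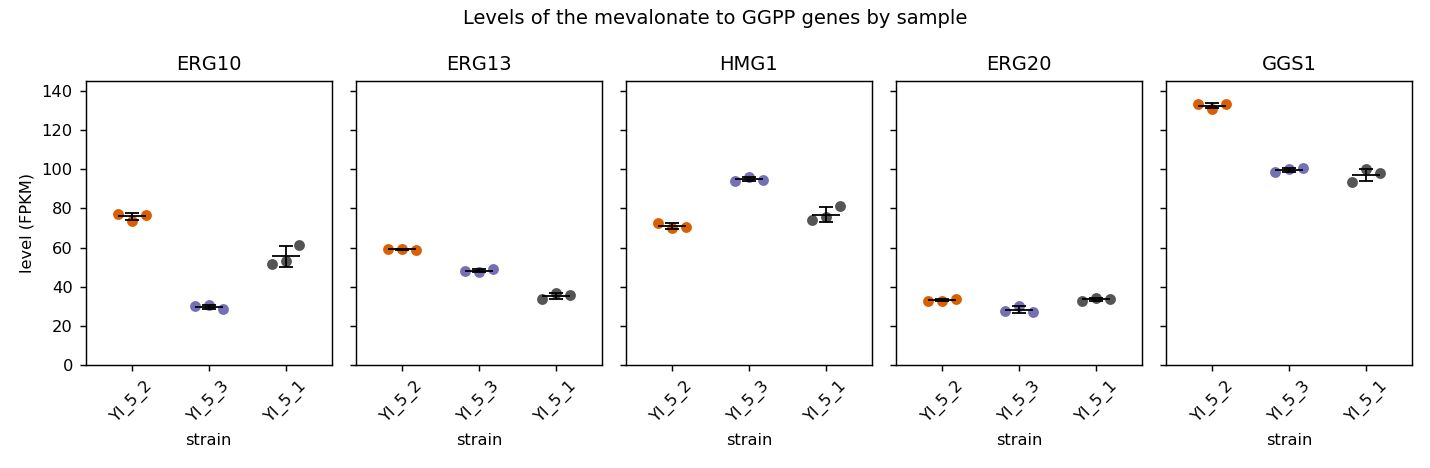
FPKM of ERG10, ERG13, HMG1, ERG20 and GGS1 (vertical axis, linear from 0) in each of the 3 samples of Yl_5_2, Yl_5_3 and Yl_5_1, with a point for each sample, a dash for the strain mean and a bar for the SD (n = 3). ERG10 lies between 28.8 and 30.5 in Yl_5_3, below every other sample, and GGS1 lies between 131 and 133 in Yl_5_2, above every other sample.

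ERG10, a gene of the first step, had the widest range of the 5. Its FPKM was 77.4, 73.8 and 76.6 in the samples of Yl_5_2, 30.2, 30.5 and 28.8 in those of Yl_5_3, and 51.9, 53.2 and 61.5 in those of Yl_5_1. The 3 strains did not overlap, with all samples of Yl_5_2 above and all samples of Yl_5_3 below the control. In Yl_5_2 it rose by a log2 fold change of 0.39 (SE 0.06, edgeR adjusted p = 2.15e-05), which is a fold of 1.31 with a 95% interval of 1.20 to 1.43. In Yl_5_3 it fell, with a log2 fold change of -0.83 (SE 0.06, edgeR adjusted p = 7.55e-09) and a level of 0.563 times that of Yl_5_1 (95% interval 0.514 to 0.616). Of all features tested, 6.15% changed more than this in size in Yl_5_3, and 19.9% changed more than ERG10 did in Yl_5_2. The highest Yl_5_1 sample was the one numbered 3, and without it the change on the log2 scale was 0.48 for Yl_5_2 and -0.74 for Yl_5_3. A further acetyl-CoA C-acetyltransferase gene that the study also names ERG10, YALI0B08536g, was not analysed here. The study lists it as lowered in Yl_5_3 too, by far less than the gene described here. The values above are those of a single gene and not of the whole step.

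ERG13, the gene of the second step, rose in both mutant strains. Its FPKM was 59.2, 59.4 and 58.9 in Yl_5_2, 47.9, 47.8 and 49.0 in Yl_5_3, and 33.7, 36.8 and 36.0 in Yl_5_1. The samples formed 3 groups without overlap, with the control lowest. On the log2 scale the rise was 0.68 in Yl_5_2 (SE 0.05, edgeR adjusted p = 4.31e-09) and 0.51 in Yl_5_3 (SE 0.05, edgeR adjusted p = 1.27e-07). These are folds of 1.60 (95% interval 1.49 to 1.71) and 1.42 (95% interval 1.33 to 1.52). In Yl_5_2 it was the largest change of the 5 genes, and 6.96% of all features tested changed more.

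HMG1, the reductase gene, moved in opposite directions in the mutant strains. Its FPKM was 72.7, 69.9 and 70.6 in Yl_5_2, 94.0, 96.2 and 94.7 in Yl_5_3, and 74.2, 75.5 and 81.0 in Yl_5_1. The lowest sample of Yl_5_1 lay only just above the highest of Yl_5_2, while Yl_5_3 stood well clear of both. In Yl_5_2 it fell, with a log2 fold change of -0.18 (SE 0.04, edgeR adjusted p = 0.00128), or 0.884 times the control level (95% interval 0.833 to 0.938). In Yl_5_3 it rose by 0.37 (SE 0.04, edgeR adjusted p = 8.54e-07), a fold of 1.29 (95% interval 1.22 to 1.37). The fall in Yl_5_2 was small: 53.0% of all features tested changed more. Scaled by total counts alone it was -0.11, smaller by more than 1.5 times, and still passed (edgeR adjusted p = 0.0198). Over the alternatives other than leaving out a sample, its adjusted p lay between 0.00117 (edgeR without a filter) and 0.0319 (limma on FPKM).

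ERG20, the farnesyl diphosphate synthase gene, varied least between the strain means. Its FPKM was 33.0, 32.9 and 33.8 in Yl_5_2, 27.9, 30.4 and 27.1 in Yl_5_3, and 32.7, 34.1 and 33.9 in Yl_5_1. The samples of Yl_5_2 and Yl_5_1 overlapped on this scale and those of Yl_5_3 lay below. For Yl_5_2 against Yl_5_1 the log2 fold change was -0.08 (SE 0.06, edgeR adjusted p = 0.250), with a 95% interval of -0.20 to 0.04. In Yl_5_3 it fell, with a log2 fold change of -0.17 (SE 0.06, edgeR adjusted p = 0.0171), or 0.887 times the control level. This call was lost with DESeq2's Wald test (-0.15, adjusted p = 0.0889) and when any of 4 samples was left out (number 2 or 3 of Yl_5_1, or number 1 or 3 of Yl_5_3), with edgeR adjusted p-values of 0.0517 to 0.0834.

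GGS1, the GGPP synthase gene, had the highest FPKM of the 5 in every strain. Its FPKM was 133, 131 and 133 in Yl_5_2, 98.5, 99.9 and 100.4 in Yl_5_3, and 93.7, 99.9 and 98.0 in Yl_5_1. On this scale Yl_5_2 stood apart, and the samples of Yl_5_3 and Yl_5_1 overlapped. In Yl_5_2 it rose by a log2 fold change of 0.38 (SE 0.04, edgeR adjusted p = 4.87e-07), a fold of 1.30 with a 95% interval of 1.23 to 1.38. In Yl_5_3 the log2 fold change was 0.10 (SE 0.04, edgeR adjusted p = 0.0476), a fold of 1.07 (95% interval 1.01 to 1.14). This rise did not pass with total counts (0.036, edgeR adjusted p = 0.465), with the replicate block, with limma on FPKM, without sample 1 of Yl_5_1 (0.066) or without any single sample of Yl_5_3.

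**Figure D2:**
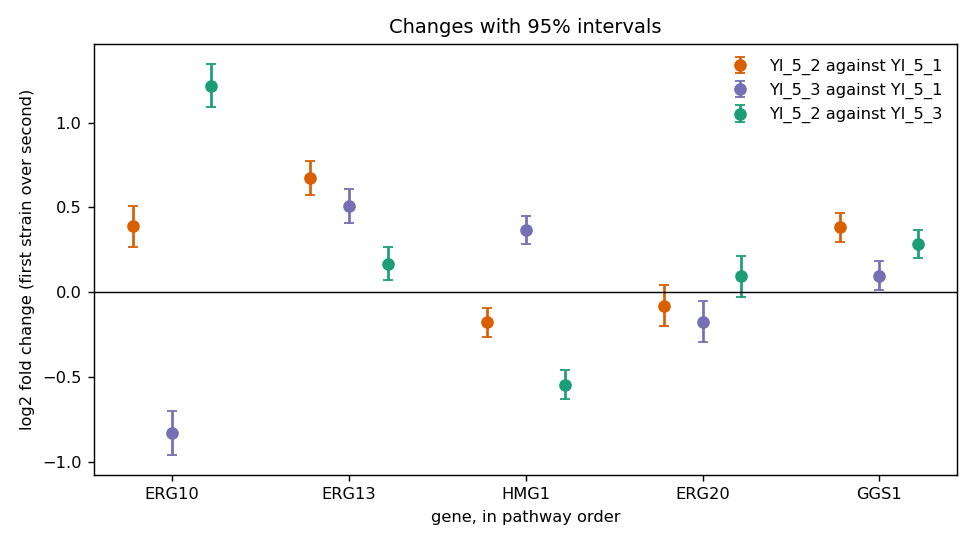
Log2 fold change (vertical axis) of each of the 5 genes in pathway order, for Yl_5_2 against Yl_5_1, Yl_5_3 against Yl_5_1 and Yl_5_2 against Yl_5_3, with bars for the 95% interval of edgeR's fit. ERG10 runs from -0.83 in Yl_5_3 to 0.39 in Yl_5_2, and HMG1 lies on the other side, at 0.37 in Yl_5_3 and -0.18 in Yl_5_2.

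The mutant strains were then compared directly, without the control samples in the contrast. Higher in Yl_5_2 than in Yl_5_3 were ERG10, ERG13 and GGS1, and HMG1 was lower. ERG10 was 2.33 times as high in Yl_5_2 (95% interval 2.13 to 2.55), a log2 fold change of 1.22 (SE 0.06, edgeR adjusted p = 2.97e-11), and it was the single member to pass 2-fold in any comparison. HMG1 was at 0.685 times the level of Yl_5_3, a log2 fold change of -0.54 (SE 0.04, edgeR adjusted p = 3.83e-09). GGS1 differed by 0.28 and ERG13 by 0.17 on the log2 scale (SE 0.04 and 0.05, edgeR adjusted p = 8.02e-06 and 0.00386). Scaled by total counts alone the difference of ERG13 was 0.29 (edgeR adjusted p = 2.11e-05), larger by more than 1.5 times, and limma on FPKM gave 0.29 too. Over all its alternatives the adjusted p lay between 2.11e-05 and 0.0210 (DESeq2). For ERG20 the difference was 0.09 (95% interval -0.03 to 0.22, edgeR adjusted p = 0.159). So 4 of 5 passed, where 67.4% of all features tested did, with 3 higher and 1 lower, beside 36.5% and 30.9% of all features. Total counts in place of TMM factors moved the median log2 difference of all features to 0.16, against 0.03 with TMM. They moved the difference of ERG20 to 0.22 (edgeR adjusted p = 0.00311), so that all 5 passed, where 69.9% of all features tested did.

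The order of the genes by FPKM, which is a level per length, differed between the strains. In Yl_5_2 it was GGS1 (132 on average), ERG10 (75.9), HMG1 (71.1), ERG13 (59.2) and ERG20 (33.2), with no overlap between neighbours. In Yl_5_3 it was GGS1 (99.6), HMG1 (94.96), ERG13 (48.2), ERG10 (29.9) and ERG20 (28.5), and in Yl_5_1 it was GGS1 (97.2), HMG1 (76.9), ERG10 (55.5), ERG13 (35.5) and ERG20 (33.6). ERG10 thus held place 2 in Yl_5_2, place 4 in Yl_5_3 and place 3 in Yl_5_1. The samples of ERG10 and ERG20 overlapped in Yl_5_3, and those of ERG13 and ERG20 overlapped in Yl_5_1, so these neighbours were not separated beyond their spread. The same order came out when TMM-scaled counts (CPM) were divided by length. Among the features tested the genes ran from below the middle upward: GGS1 was above 76.0%, 71.1% and 69.5% of them by FPKM in Yl_5_2, Yl_5_3 and Yl_5_1, and ERG20 above 38.9%, 39.7% and 41.0%.

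**Figure D3:**
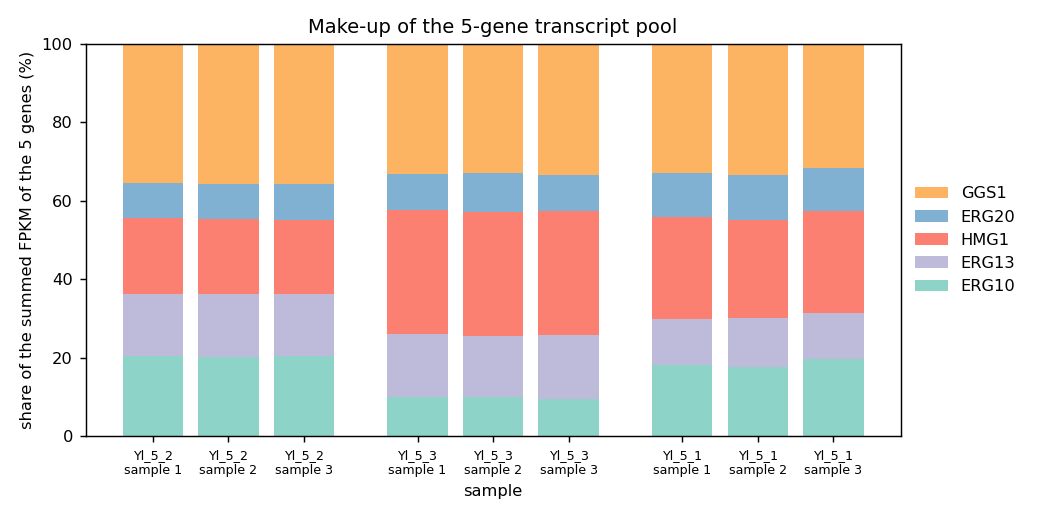
Share of each gene (vertical axis, percent, stacked in pathway order from ERG10 at the bottom) in the summed FPKM of the 5 genes, with a bar for each of the 3 samples of Yl_5_2, Yl_5_3 and Yl_5_1. HMG1 takes 18.9% to 19.3% in Yl_5_2, 31.5% to 31.6% in Yl_5_3 and 25.2% to 26.1% in Yl_5_1.

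Shares and ratios within a sample do not depend on how libraries are scaled against each other. The summed FPKM of the 5 genes was 372 ± 4.49 in Yl_5_2, 301 ± 3.30 in Yl_5_3 and 299 ± 12.1 in Yl_5_1 (SD, n = 3 each). The sums, which are themselves scaled by the total count, overlapped between Yl_5_3 and Yl_5_1 while their make-up differed. ERG10 took 9.91% ± 0.265 of the sum in Yl_5_3, against 18.6% ± 1.09 in Yl_5_1 (SD, n = 3 each), and HMG1 took 31.5% ± 0.0483 in Yl_5_3, against 25.7% ± 0.465 in Yl_5_1 (SD, n = 3 each). An SD of 3 samples is itself uncertain. That of HMG1 in Yl_5_3 is smaller than its counting error there (1.35% of its level) would give, and does not measure the precision of the share. In Yl_5_2, ERG13 took 15.9% ± 0.246, against 11.9% ± 0.355 in Yl_5_1 (SD, n = 3 each). The share of HMG1 in Yl_5_2 was 19.1% ± 0.216 (SD, n = 3), the lowest of the 3 strains. GGS1 took the largest share in every strain, at 35.6% ± 0.0994 in Yl_5_2, 33.1% ± 0.352 in Yl_5_3 and 32.6% ± 0.903 in Yl_5_1 (SD, n = 3 each).

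The ratios between genes were compared by exact permutation tests of their log2 values, which with 3 samples against 3 cannot go below p = 0.10 (two-sided). Of 18 comparisons made, over 6 ratios, 17 reached this smallest value (0.106 after Benjamini-Hochberg adjustment), and their samples did not overlap. The 18 are not independent: the comparisons share samples, and HMG1 over ERG10 and GGS1 over ERG10 follow from the other ratios. The non-overlap of single features was itself common, at 61.4% in Yl_5_2 and 63.3% in Yl_5_3 against Yl_5_1, and 72.1% between the mutant strains. These shares are of TMM-scaled CPM and not of ratios, and no share was computed for ratios of other gene pairs. ERG13 over ERG10 sets a gene of the second step against a gene of the first. It was 0.764, 0.805 and 0.769 in Yl_5_2, 1.59, 1.57 and 1.70 in Yl_5_3, and 0.649, 0.691 and 0.585 in Yl_5_1. It was higher in both mutant strains, by a fold of 1.22 in Yl_5_2 and of 2.52 in Yl_5_3. HMG1 over ERG13 was 1.228, 1.177 and 1.198 in Yl_5_2, 1.96, 2.01 and 1.93 in Yl_5_3, and 2.20, 2.05 and 2.25 in Yl_5_1. The transcripts of the reductase and of the synthase before it were thus closest to equal in Yl_5_2, at a fold of 0.554 of the control ratio.

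Lower in the list, ERG20 over HMG1 was 0.454, 0.470 and 0.479 in Yl_5_2, 0.297, 0.316 and 0.286 in Yl_5_3, and 0.441, 0.452 and 0.419 in Yl_5_1. It was lowest in Yl_5_3, and Yl_5_2 exceeded the control by a fold of only 1.07. GGS1 over ERG20, the GGPP synthase against the synthase that feeds it, was 4.04, 3.98 and 3.94 in Yl_5_2, 3.54, 3.29 and 3.70 in Yl_5_3, and 2.86, 2.93 and 2.89 in Yl_5_1. It was higher in both mutant strains than in the control, by a fold of 1.38 in Yl_5_2 and 1.21 in Yl_5_3. In Yl_5_3 this combined a fall of ERG20 (log2 fold change -0.17) with a smaller rise of GGS1 (0.10). Neither of these calls held under all alternatives. The ratio does not show a rise of GGS1 alone in Yl_5_3, which depended on the scaling. The exception among the comparisons was GGS1 over ERG10 in Yl_5_2 against Yl_5_1. It was 1.72, 1.77 and 1.74 in Yl_5_2 and 1.81, 1.88 and 1.59 in Yl_5_1, which overlapped (p = 1 in the exact permutation test). HMG1 over ERG10 spread widest, at 0.936 ± 0.0132 in Yl_5_2, 3.18 ± 0.0897 in Yl_5_3 and 1.39 ± 0.0618 in Yl_5_1 (SD, n = 3 each).

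**Figure D4:**
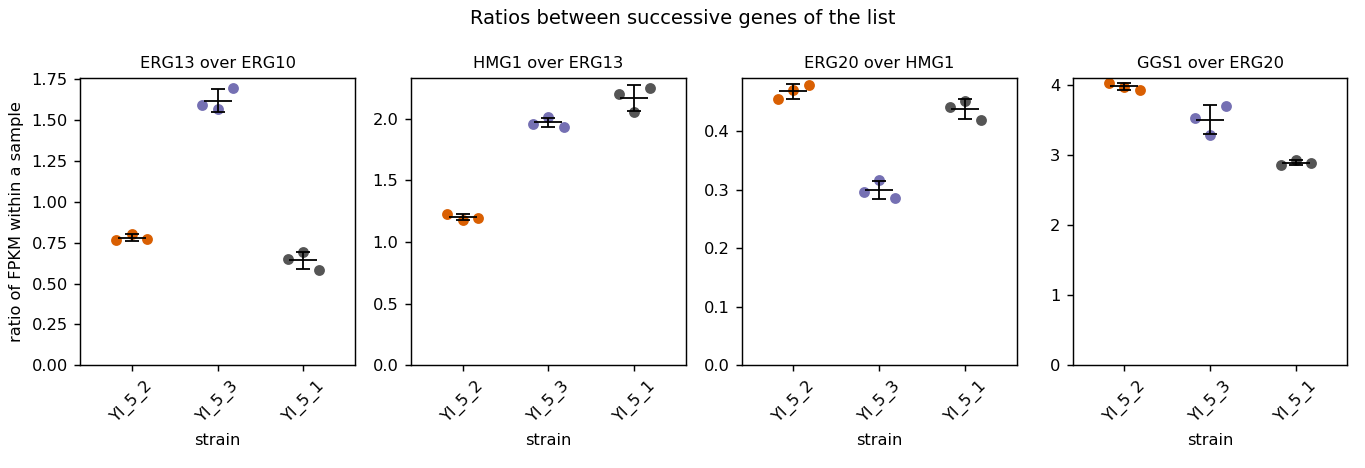
Ratio of the FPKM of a gene to that of the gene before it in the list (vertical axes, linear from 0, a panel for each ratio) in the 3 samples of Yl_5_2, Yl_5_3 and Yl_5_1, with a point for each sample, a dash for the mean and a bar for the SD (n = 3). ERG13 over ERG10 lies between 1.57 and 1.70 in Yl_5_3, and HMG1 over ERG13 between 1.177 and 1.228 in Yl_5_2, each apart from the other strains.

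The spread between samples differed between the strains. In Yl_5_1 the coefficient of variation of the TMM-scaled CPM was 10.1% for ERG10, 5.15% for ERG13, 5.45% for HMG1, 2.91% for ERG20 and 3.84% for GGS1. Counting error, as the square root of the mean reciprocal count over the 3 samples, gives 2.77%, 3.26%, 1.48%, 3.82% and 2.30% in the same order. In Yl_5_2 it was at most 1.96% (HMG1, for which counting error gives 1.60%), and in Yl_5_3 it was at most 5.65% (ERG20, for which counting error gives 4.199%). Every other gene of the mutant strains had a spread below its counting error, as GGS1 in Yl_5_2 (0.547% against 2.05%) and ERG10 in Yl_5_3 (2.50% against 3.81%). With 3 samples, such low values do not show how uniform a strain is. The coefficient of variation was highest in the control for 4 of the 5 genes, ERG20 being the exception. Sample 1 of Yl_5_1 was the lowest of its strain for all 5 genes, in FPKM and in CPM, and sample 3 was the highest for ERG10 and HMG1 on both scales.

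For each gene the feature with the most similar pattern was looked up among 5220 others with a mean of at least 10 CPM, as the smallest root mean square difference over the 9 samples of log2(CPM + 1) after the control mean was taken off. These were XM_499985.1 for ERG10 (0.0535), XM_503375.1 for ERG13 (0.0562), XM_503369.1 for HMG1 (0.0338), XM_499814.1 for ERG20 (0.0244) and XM_499675.1 for GGS1 (0.0291). The annotation names none of them. Of the pairs of members the closest was ERG13 and GGS1, at 0.284, which is not comparable with the values above, since each member has only 4 others to be near to. FPKM in place of scaled counts gave the same 5 features.

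The neighbours of the 5 genes on the chromosome were also looked at, as RefSeq orders them in assembly ASM176148v1 of strain W29. None of the 10 adjacent genes overlapped a member in this annotation, and 8 of them had a row in the files. Of these, 4 passed the test in Yl_5_2 and 3 in Yl_5_3, where 57.4% and 55.3% of all features tested did. In Yl_5_2 the gene before ERG13 rose (log2 fold change 0.70) and so did the gene after GGS1 (0.55), while the gene before HMG1 fell (-0.50), each in the direction of the member beside it. The gene after ERG10 fell (-0.22), against the direction of ERG10. With 27.4% of all features higher and 30.0% lower in Yl_5_2, nothing particular to the neighbours was read from 8 genes. In Yl_5_3 the gene before ERG13 rose by 0.28, and both genes beside GGS1 fell (-0.26 and -0.20). Neither neighbour of ERG20 passed in either strain, with log2 fold changes between -0.10 and 0.08. The library kit named in the labels is not described there as keeping strand, so transcripts on opposite strands of a locus may share counts.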

How the data were processed

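RNA was sequenced by the authors with the NEBNext Ultra RNA kit on an Illumina HiSeq platform, and the data were analysed by Novogene Company. The submitters' processing notes list HTSeq 0.6.1 and DESeq 1.18.0, while the aligner and genome build are not given in the sources used here. The authors deposited read counts of 6145 features, without normalization, and FPKM values. Count, total count and a whole-number length (within 0.01 bases) return the FPKM of all 6126 features that allow the check, so FPKM carry no other scaling.

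Samples were grouped by their titles (ctrl is Yl_5_1, Y5_2 is Yl_5_2 and Y5_3 is Yl_5_3, as the study's legends say). Counts were tested in R 4.3.3 with edgeR 4.0.16 (TMM, a term per strain, robust dispersion, quasi-likelihood F test, Benjamini-Hochberg adjustment) over the 6037 features that reached 10 counts in 3 or more samples. Standard errors were taken from each log2 fold change and its F value, and 95% intervals from them. The pipeline was tested on simulated counts in which few features were changed, in Yl_5_2 alone. That run does not test the scaling where most features are called, as in these data. Alternatives were other scalings, filters, fits of 6 samples, a replicate block, leaving out each sample, DESeq2 1.42.0, and limma 3.58.1 on log2(FPKM + 1) and log2(FPKM + 0.1) of features with a mean FPKM of at least 1.

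The genes, lists and tests were chosen with earlier results of these data known, and the ratios, shares and neighbouring genes were added after the values were seen. The named genes were the 5 members and the feature nearest in pattern to each. Of 5959 accessions, 5430 are in the RefSeq table (ASM176148v1), which holds locus tags and no gene names. Other mevalonate and sterol genes, Yl-SPT15, GUT2 and actin were therefore not analysed here.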

Additional observations from a re-analysis of the deposited data

Results flagged for a closer look

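The changes of ERG10 against Yl_5_1 differed between the mutant strains: on the log2 scale it stood at 0.39 for Yl_5_2 and at -0.83 for Yl_5_3, and the direct test of the difference gave 1.22 (SE 0.06, edgeR adjusted p = 2.97e-11), with all 3 samples of Yl_5_2 above and all 3 of Yl_5_3 below the control. The changes of HMG1 differed the other way, with -0.18 in Yl_5_2 and 0.37 in Yl_5_3, a difference of -0.54 (SE 0.04, edgeR adjusted p = 3.83e-09). Differences between the mutant strains were common, with 67.4% of all features tested called. Of these features tested, 4.14% differed more in size than ERG10 and 18.7% more than HMG1.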

How the results depend on the processing

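Of 150 log2 fold changes of the 5 genes recomputed under the other scalings, filters, tests and designs, 142 kept their direction and their side of the threshold of 0.05, 5 lost the call and 3 gained it, and none of the 150 changed direction. The rise of GGS1 in Yl_5_3 was lost with total counts (0.036), with limma on log2(FPKM + 1) (0.035) and log2(FPKM + 0.1) (0.036) and with the replicate block (0.10), and the fall of ERG20 in Yl_5_3 with DESeq2 (-0.15). ERG20 passed between Yl_5_2 and Yl_5_3 with total counts (0.22) and with limma on log2(FPKM + 1) (0.22) and log2(FPKM + 0.1) (0.22). The cause of these changes was not tested, beyond the shift of all features under total counts. The block changed no other call. The replicate numbers were not shown to pair the samples: deviations of same-numbered samples correlated between -0.135 and 0.164. Of 135 values with a sample left out, 127 kept direction and call, and 8 lost the call. The 135 include fits without a sample of the strain outside the comparison, which moved the estimates little. All 8 losses belonged to ERG20 or GGS1 in Yl_5_3. There the log2 fold change of ERG20 lay between -0.22 and -0.14 and that of GGS1 between 0.066 and 0.12. The number of members called in Yl_5_3 lay between 3 and 5. With all samples, 55.3% of all features tested were called. The number was 3 without sample 1 or sample 3 of Yl_5_3, where 49.1% and 49.4% of all features tested were called. Counting error of a gene in a strain, from its mean reciprocal count, was 1.35% to 4.199% (coefficient of variation). This limits what can be said of changes as small as those of ERG20 and of GGS1 in Yl_5_3.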
